A study of Mus musculus with 4 samples.

Results

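The 10 immediate early genes described here encode the FOS proteins Fos and Fosb, the JUN proteins Jun, Junb and Jund, the related factor Atf3, the zinc-finger factors Egr1, Egr2 and Egr3, and the nuclear protein Ier2. They were taken from a list of named genes and matched by RefSeq accession to the probes of the arrays, where they are 10 of 20637 named genes. All 10 were found, each with 1 probe, and all 10 were well above background and unsaturated on all 4 arrays. The series measured dendritic cells of the colonic lamina propria, sorted by flow cytometry from C57BL/6J mice, on 4 one-colour Agilent arrays, with 1 array per group. The groups were wild-type (WT) females under specific pathogen-free (SPF) housing, CD300a-deficient (KO) females under SPF housing, WT males raised germ-free (GF) and KO males raised germ-free. CD300a is an inhibitory receptor of myeloid cells that binds phospholipids of dying cells. The lamina propria cells of each condition came from 5 mice, and the complementary DNA was amplified before labelling. How CD300a was removed from this line, and the ages of the mice, were not stated in the labels.

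Immediate early genes are transcribed within minutes of a stimulus from factors already present in the cell, without new protein synthesis, and most of their messenger RNAs are short-lived. FOS and JUN proteins pair through leucine zippers to form activator protein 1 (AP-1), which binds the TGANTCA site, and EGR proteins bind GC-rich sites through zinc fingers. In dendritic cells these factors act downstream of microbial sensors and growth factor receptors through mitogen-activated protein (MAP) kinases. The same genes are also known to be induced by the enzymes, warmth and handling used to take a tissue apart into single cells.

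Housing cannot be told apart from labelled sex, array slide or scan, because both SPF arrays shared 1 slide and 1 scan and both GF arrays shared another. Each level below is the log2 processed signal of a gene's probe minus the 75th percentile of the same array, so that 0 is the 75th percentile, and a difference of 1 is 2-fold. With 1 array per group a difference between a pair of arrays has no replicate error and no p-value, and "at least 2-fold" describes its size only. In bulk samples, fewer cells of a type and less RNA per cell cannot be told apart. Between 13797 and 15055 named genes were above background per array. The Cd300a probe read 7.88 on WT SPF, 7.91 on KO SPF, 7.60 on WT GF and 8.05 on KO GF, so it did not separate the genotypes; the labels do not say which bases the deficient allele lacks. The female-specific RNA Xist was above background on both SPF arrays, at 4.87 on WT and 5.45 on KO, and also on the KO GF array, labelled male, at 3.62, but not on the WT GF array. The Y-linked gene Ddx3y was above background on the GF arrays alone, at 2.07 on WT and 0.59 on KO. The library labelled KO GF thus had both RNAs above background. The SPF pair and the housing comparison in WT mice do not use that array.

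The promoters of Fos and Fosb, higher under GF, and of Jun and Junb, lower there, are shown first. The FOS and JUN genes share stimuli and protein partners. A promoter of Egr2, whose housing differences stayed under 2-fold, is shown beside them. Of the 10 members, 7 were matched by symbol to the RefSeq promoter table (build GRCm38.p6), and Egr1, Egr3 and Ier2 were not. Each line gives the 150 bases before the start of transcription, 5′ to 3′ on the gene's strand, with matches to the searched motifs in capitals. Fos lies at chr12:85473740-85473889 on the plus strand, Fosb at chr7:19310046-19310195 on the minus strand, Jun at chr4:95052223-95052372 on the minus strand and Junb at chr8:84978749-84978898 on the minus strand. Egr2 has 5 listed promoters, of which the third is shown, at chr10:67537719-67537868 on the plus strand.
Fos: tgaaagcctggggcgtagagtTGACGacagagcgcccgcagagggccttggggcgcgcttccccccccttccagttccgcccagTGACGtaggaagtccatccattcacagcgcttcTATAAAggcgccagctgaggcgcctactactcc
Fosb: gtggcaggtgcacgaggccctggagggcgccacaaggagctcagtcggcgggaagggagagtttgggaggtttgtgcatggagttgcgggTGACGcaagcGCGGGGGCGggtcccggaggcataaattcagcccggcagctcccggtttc
Jun: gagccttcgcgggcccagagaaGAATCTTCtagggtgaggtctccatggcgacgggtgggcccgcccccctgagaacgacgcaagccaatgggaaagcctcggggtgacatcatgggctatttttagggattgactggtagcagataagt
Junb: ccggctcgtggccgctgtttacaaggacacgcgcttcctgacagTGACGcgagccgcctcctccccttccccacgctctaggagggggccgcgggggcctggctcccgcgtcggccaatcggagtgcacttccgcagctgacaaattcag
Egr2: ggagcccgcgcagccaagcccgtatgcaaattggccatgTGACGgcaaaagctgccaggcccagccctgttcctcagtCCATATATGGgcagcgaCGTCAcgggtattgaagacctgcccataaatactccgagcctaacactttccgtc

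In these windows the capitals mark TGACG, the core of the cyclic AMP response element (CRE), on either strand; TATAAA, the TATA box; GCGNGGGCG, the EGR site; GAANNTTC, the core of the heat shock element; and the CArG box bound by serum response factor. Position -1 is the last base before the start. Fos holds core CREs at -129 and -66 and a TATA box at -33. Fosb holds a core CRE at -60 and an EGR site at -50, and Junb a core CRE at -106. Jun holds no core CRE in its window and a heat shock core at -128. The shown Egr2 promoter holds a CArG box at -72 between core CREs at -111 and -55. Of the other Egr2 promoters, the first matched no motif and the second had a CArG box but no core CRE. Atf3, whose sequence is not shown, holds a core CRE at -7, and Jund matched none of the motifs.

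The search covered both strands from 250 bases before to 50 bases after each start. A gene was counted when any of its listed promoters matched, while the share of all promoters counts each promoter singly. The 7 genes have 11 promoters, of which 5, some overlapping, belong to Egr2. A core CRE was found for 5 of the 7 genes (Atf3, Egr2, Fos, Fosb and Junb) and in 7 of the 11 promoters, against 20.8% of all 32851 promoters in the table. A CArG box was found for Egr2 alone, in 4 of the 11 promoters, against 1.63% of all promoters. An EGR site was found for Fosb alone, against 5.55%, and a heat shock core for Jun alone, against 7.86%. The ETS site CCGGAA was found for Egr2, in another of its promoters, against 14.9%. TATAAA was found for Fos and Junb, against 13.6%. The Junb match begins at the start itself, not before it, and lies outside the printed window. The full CRE, TGACGTCA, which contains that core on both strands, was found for 0 of 7 genes against 1.79% of promoters, and TGANTCA for 0 of 7 against 7.81%. A match describes letters in the window and does not show that a factor binds there. Sites more than 250 bases before the start were not searched, nor were Egr1, Egr3 and Ier2. The lack of a match, such as of a CArG box for Fos, thus does not show that a gene lacks the site.

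The FOS genes were higher under germ-free housing in both genotypes. Fos, whose protein forms AP-1 only with a JUN partner, read 6.42 on WT SPF, 6.01 on KO SPF, 7.72 on WT GF and 7.05 on KO GF. Both GF arrays were above both SPF arrays, and within each housing the KO array was lower. The GF array was 2.46-fold higher in WT (log2 1.30) and 2.06-fold higher in KO (log2 1.04), and the KO array was lower, with differences of -0.41 under SPF and -0.67 under GF.

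The Fos probe is printed 10 times on each array, which gives an error of measurement within an array. The standard deviation between spots was 0.08 on WT SPF (9 spots), 0.06 on KO SPF (10 spots), 0.08 on WT GF (10 spots) and 0.05 on KO GF (9 spots), with 1 outlier spot left out on each array of 9. The spots ran from 6.26 to 6.50 on WT SPF, from 5.87 to 6.07 on KO SPF, from 7.52 to 7.82 on WT GF and from 6.99 to 7.15 on KO GF. No 2 arrays overlapped, so each Fos difference exceeded the spread between spots; that spread says nothing about the spread between mice. The other 9 members are printed once. Over the 127 to 134 probes per array that are printed repeatedly at a level of 0 or more, the median standard deviation between spots was 0.06 to 0.07, and for those below 0 and above background it was 0.14 to 0.15.

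**Figure D1:**
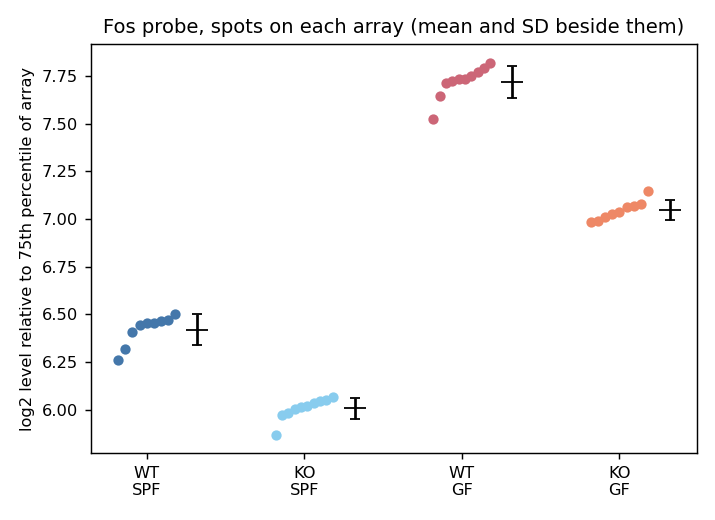
Each point is 1 spot of the Fos probe on 1 array, as log2 level relative to the array's 75th percentile, with the mean and standard deviation over the 9 or 10 spots beside it. The spots of the 4 arrays do not overlap, from 5.87 to 6.07 on KO SPF up to 7.52 to 7.82 on WT GF.

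Fosb, a FOS protein with a strong activation domain, read 6.99 on WT SPF, 7.80 on KO SPF, 8.97 on WT GF and 8.46 on KO GF. It was the member with the greatest positive KO difference under SPF, at 0.80, while under GF the KO array was lower, with a difference of -0.51. Its housing difference was 1.97 in WT (3.93-fold) and 0.66 in KO (1.58-fold).

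Jun and Junb ran the other way. Jun, the AP-1 subunit activated by the kinase JNK, read 6.19 on WT SPF, 5.76 on KO SPF, 5.05 on WT GF and 4.21 on KO GF. Both GF arrays were below both SPF arrays, with differences of -1.14 in WT (2.20-fold lower) and -1.55 in KO (2.93-fold lower). The KO array was also the lower of each pair, with differences of -0.43 under SPF and -0.84 under GF.

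Junb, a JUN protein that often restrains Jun and is needed by several myeloid lineages, read 4.46 on WT SPF, 4.6 on KO SPF, 3.66 on WT GF and 2.55 on KO GF. The SPF arrays lay close together, with a KO difference of 0.14, and the KO GF array stood lowest. Its KO difference under GF was -1.11 (2.16-fold lower), and its housing difference was -0.80 in WT and -2.05 in KO (4.15-fold lower).

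Jund, the JUN protein that many resting cells express steadily, read 8.41 on WT SPF, 8.24 on KO SPF, 8.60 on WT GF and 8.09 on KO GF. Its 4 levels spanned the narrowest range of the 10 members. Its KO differences were -0.17 under SPF and -0.51 under GF. Its housing differences were 0.18 in WT and -0.15 in KO, and the second was positive with normexp background correction (0.03), in the deposited value table (0.19) and with quantile normalization (0.30).

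The change of one gene relative to another can be read within each array, where scaling cancels. The gap between the Fos and Jun probes widened from SPF to GF by 2.44 in WT and 2.59 in KO, and that between Fos and Junb by 2.10 in WT and 3.09 in KO. Against Jund, the Fos probe shifted by 1.12 in WT and 1.19 in KO. For Fosb against Jun the shift was 3.11 in WT and 2.21 in KO. These shifts show unequal change between probes and do not say which of the 2 changed.

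Atf3, a repressor and activator of stress genes that pairs with JUN proteins, read 4.93 on WT SPF, 4.89 on KO SPF, 6.01 on WT GF and 5.07 on KO GF. Only the WT GF array stood apart. Its housing difference was 1.07 in WT (2.10-fold) and 0.18 in KO, and its KO difference was -0.04 under SPF and -0.94 under GF.

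Among the EGR genes, Egr1 had the greatest housing difference of the 10 members in both genotypes. Egr1, a growth factor and stress responsive factor, read 6.39 on WT SPF, 6.11 on KO SPF, 8.97 on WT GF and 8.44 on KO GF. The GF array was 5.94-fold higher in WT (log2 2.57) and 5.02-fold higher in KO (log2 2.33). The KO array was lower, with differences of -0.28 under SPF and -0.53 under GF, so the housing difference of this gene was several times its genotype difference.

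Egr2, which limits T cell activation and is expressed in some macrophages and dendritic cells, read 4.38 on WT SPF, 3.91 on KO SPF, 4.03 on WT GF and 3.45 on KO GF. Unlike Egr1 it was lower under GF, with differences of -0.35 in WT and -0.46 in KO, and lower in KO, with differences of -0.47 under SPF and -0.57 under GF. None of these differences reached 2-fold.

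Egr3, a close relative and in many cells a target of Egr1 and calcium signals, read -1.05 on WT SPF, -1.56 on KO SPF, 0.35 on WT GF and 0.17 on KO GF. The GF arrays were higher by 1.39 in WT (2.63-fold) and by 1.72 in KO (3.30-fold). It is the only member with levels below 0, and with another background correction (normexp) the differences shrank to 0.71 and 0.89, under 2-fold. Its KO difference was -0.51 under SPF and -0.18 under GF, and the second was 0.11 in the deposited value table.

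Ier2, a short-lived nuclear protein of the immediate early class, read 1.66 on WT SPF, 1.28 on KO SPF, 2.0 on WT GF and 1.25 on KO GF. Its housing difference was 0.33 in WT and -0.02 in KO, and the latter was positive with normexp (0.07), with quantile normalization (0.12) and in the deposited value table (0.32). The KO array was lower, with differences of -0.39 under SPF and -0.74 under GF.

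**Figure D2:**
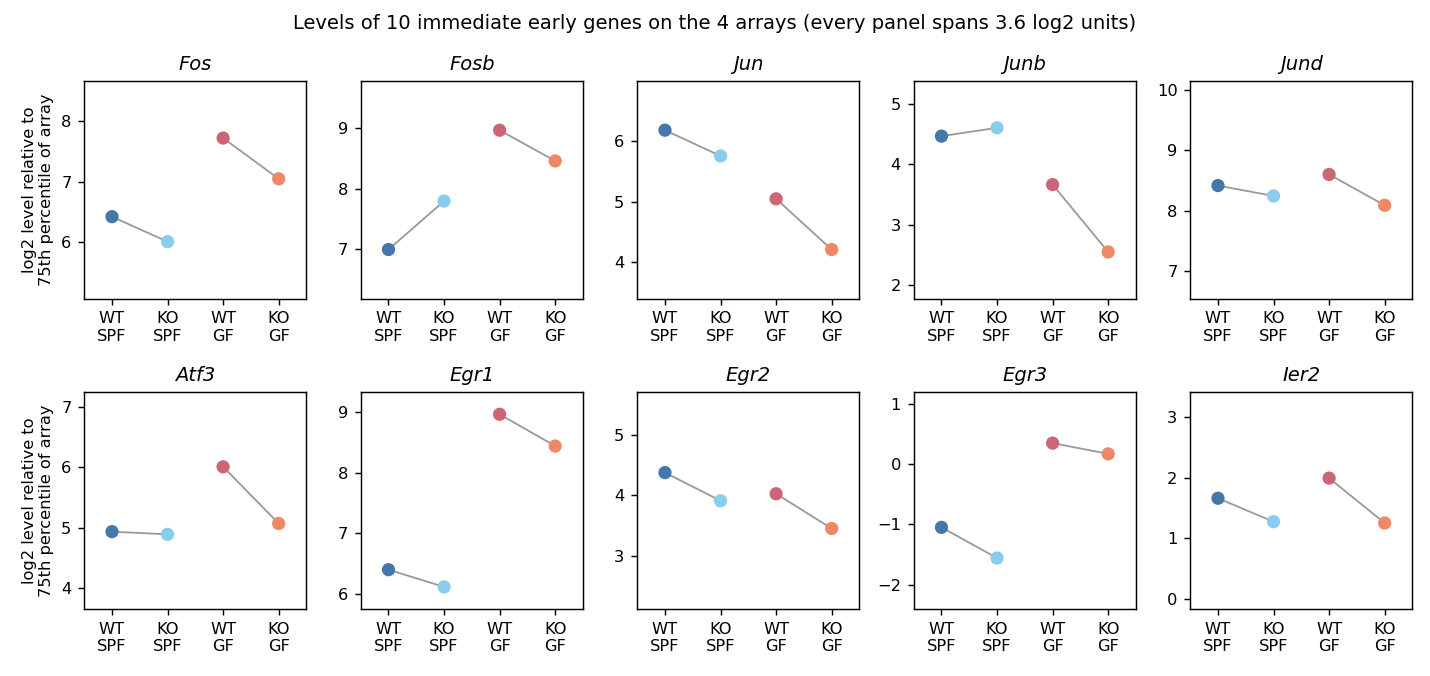
Log2 level of each of the 10 genes relative to the 75th percentile of the array, with 1 point per array and lines joining the WT and KO arrays of a housing; every panel spans the same height. Egr1 rises from 6.39 and 6.11 on the SPF arrays to 8.97 and 8.44 on the GF arrays, while Jun goes from 6.19 and 5.76 to 5.05 and 4.21.

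The genotype comparison under SPF housing asks whether loss of CD300a goes with a different level of these genes in the presence of microbes. None of the 10 members was 2-fold higher in KO, against 5.61% of the 14877 genes above background on at least 1 of those arrays. None was 2-fold lower, against 6.61%. In the top quartile of genes by mean level, which holds 9 of the 10 members, these shares were only 2.61% and 0.757%. Of the 10, 8 were lower in KO, beside 55.7% of all genes, and 2, Fosb and Junb, were higher. The median difference was -0.34 beside -0.06 for all genes. In the top quartile by level, 51.2% of genes were lower in KO, with a median difference of -0.01. Of the genes past 2-fold, 45.9% were higher in KO, and 66.1% with normexp or 57.2% under stricter detection, which keeps genes above background on every array.

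Under germ-free housing all 10 members were lower in KO, from -0.18 for Egr3 to -1.11 for Junb. One of them, Junb, was at least 2-fold lower, against 7.77% of 15697 genes, and none was 2-fold higher, against 8.80%. The median difference was -0.62 beside -0.20 for all genes, of which 61.0% were lower in KO. Since 9 of the 10 members are in the top quartile of genes by mean level, that quartile is the nearer background: its 4093 genes had a median difference of -0.45, and 78.6% of them were lower in KO. In the deposited value table, where all genes had a median of 0.08 and not -0.20, the members' median was -0.34 and Egr3 was higher in KO. Of the genes past 2-fold, 80.0% were higher in KO in that table, beside 53.1% here and 38.9% under stricter detection.

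The housing comparison in WT mice had the most members past 2-fold. Fos, Fosb, Atf3, Egr1 and Egr3 were at least 2-fold higher under GF, 5 of 10 against 17.5% of 15656 genes, and Jun was at least 2-fold lower, 1 of 10 against 9.44%. The median difference was 0.70 beside 0.13 for all genes and 0.03 for the top quartile by level. Of that quartile, 8.28% were at least 2-fold higher and 5.42% lower. Relative to the median of all genes the difference was 2.44 for Egr1, 1.85 for Fosb, 1.17 for Fos, 0.95 for Atf3 and -1.26 for Jun.

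In KO mice, Fos, Egr1 and Egr3 were at least 2-fold higher under GF, 3 of 10 against 21.6% of 15572 genes, and Jun and Junb were at least 2-fold lower, 2 of 10 against 15.4%. The median difference was 0.08 beside 0.05 for all genes and -0.29 for the top quartile by level. Of that quartile, 6.69% were at least 2-fold higher and 20.7% lower. Fosb and Atf3, past 2-fold in WT, were at 0.66 and 0.18 in KO. Of the genes past 2-fold, 58.4% were higher under GF, beside 75.4% in the deposited value table and 49.1% with normexp. The genotype and housing comparisons use the same 4 arrays, so they are not independent of each other.

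**Figure D3:**
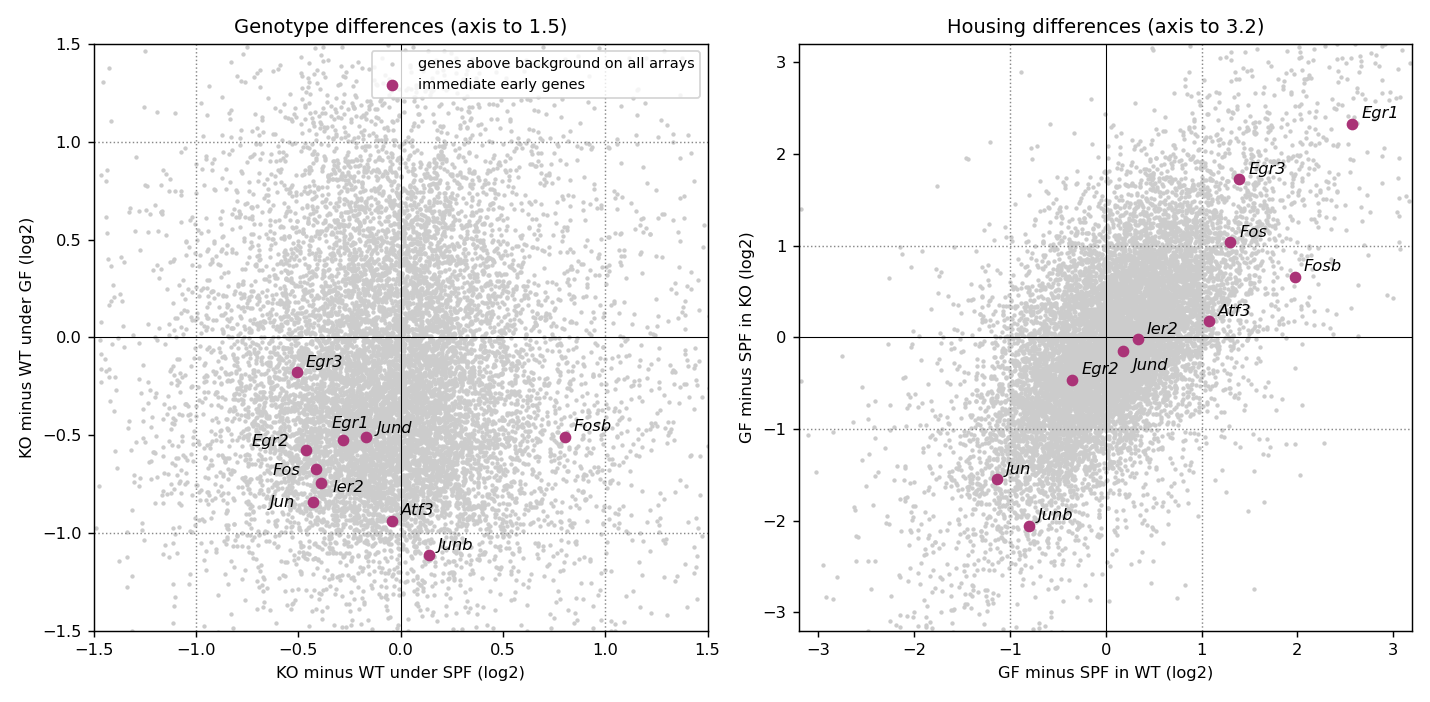
Log2 differences of the 10 genes (labelled points) and of all genes detected on every array (grey; those beyond the axes are not drawn), with KO minus WT under SPF against that under GF on the left, GF minus SPF in WT against that in KO on the right, and dotted lines at 2-fold. On the left, all 10 genes lie below 0 on the vertical axis and none is past 2-fold on the horizontal one; on the right, Egr1 lies at 2.57 and 2.33 and Jun at -1.14 and -1.55.

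A limma fit of genotype and housing as additive terms used the 4 arrays together for 15029 genes above background on at least 2 arrays. Its error has 1 residual degree of freedom per gene, which is the difference of the KO effects between the housings and not a spread between replicates, so it was moderated across genes. For housing averaged over genotype, 2489 genes (16.6%) had a Benjamini-Hochberg adjusted p under 0.05, among them 4 of the 10 members. Egr1 was higher under GF by 2.45 ± 0.39 (SE; limma adjusted p = 0.00105) and Egr3 by 1.56 ± 0.39 (limma adjusted p = 0.018). Jun was lower, at -1.34 ± 0.39 (limma adjusted p = 0.0374), and so was Junb, at -1.43 ± 0.43 (limma adjusted p = 0.0425).

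Fos, at 1.17 ± 0.39 (limma adjusted p = 0.0637), and Fosb, at 1.32 ± 0.43 (limma adjusted p = 0.0607), did not pass, and Atf3, Egr2, Ier2 and Jund had limma adjusted p-values from 0.342 to 0.985. The calls of Fos, Fosb, Egr3, Jun and Junb changed with the processing, and that of Egr1 did not: its limma adjusted p stayed between 3.94e-12 and 0.00976. The lowest value came from a trended robust prior with 131 prior degrees of freedom. Under stricter detection the prior was infinite, with the same SE of 0.41 for every member. In these fits a gene's own error counted little or not at all. For genotype averaged over housing, limma called 20 genes (0.133%), none of them a member. The smallest limma adjusted p of a member was 0.933, and 0 of the 10 had an unadjusted p under 0.05, beside 954 of all genes; with normexp, the unadjusted p of Fos was 0.0487, that of Jun 0.0299 and that of Egr2 0.0455.

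The other genes of these pathways were taken from lists compiled for this tissue. Their counts are to be read beside the shares of all genes past 2-fold. In KO against WT these were 5.61% higher and 6.61% lower under SPF, and 8.8% and 7.77% under GF. For GF minus SPF they were 17.5% higher and 9.44% lower in WT, and 21.6% and 15.4% in KO. Among 16 AP-1 partners and relatives (the leucine zipper proteins of the FOSL, BATF, ATF, MAF, NRF2 and BACH groups), 0 were 2-fold higher and 5 were 2-fold lower in KO under GF (3 lower in the deposited value table). Under GF, 3 of 16 were 2-fold higher in WT mice (Fosl1, Fosl2 and Jdp2) and 0 lower, so the higher count was close to the 17.5% of all genes. The higher count was 2 with normexp, quantile normalization, the deposited value table or the mean over probes. Fosl1 read only -3.60 on WT SPF and -2.59 on WT GF. In KO mice 0 were higher and 7 lower, beside 15.4% of all genes lower in KO mice. The FOS relative Fosl2 read 5.83, 6.37, 7.12 and 6.64 on WT SPF, KO SPF, WT GF and KO GF. It was 1.29 higher under GF in WT and 0.27 higher in KO. Jdp2, a repressor that binds JUN proteins, read 1.87, 3.29, 3.42 and 1.83 in the same order, so KO was 1.41 higher under SPF and lower, with a difference of -1.59 under GF. Batf, which guides AP-1 in lymphocytes and dendritic cells, was lower in KO under GF, with a difference of -1.35, and so was Batf3, needed for cross-presenting dendritic cells, with a difference of -1.16.

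Of the EGR relatives, 3 were measured. Egr4 read -2.19, -2.66, -1.37 and -1.58 on WT SPF, KO SPF, WT GF and KO GF, 0.82 higher under GF in WT and 1.08 higher in KO. With normexp, 0 of the 3 were 2-fold higher under GF in KO. Nab2, a corepressor that EGR proteins induce, was lower under GF, with differences of -1.11 in WT and -0.89 in KO, and the corepressor Nab1 at -0.17 and -1.13. Egr4 was thus higher on the GF arrays with Egr1 and Egr3, and both corepressors were lower there.

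Among 22 other immediate early transcription regulators, 7 were 2-fold higher and 2 lower under GF in WT, and 3 higher and 10 lower in KO. Klf2 and Klf4, Krüppel-like factors that restrain inflammatory genes in myeloid cells and endothelium, were higher under GF in both genotypes: Klf2 by 1.64 in WT and 1.41 in KO, and Klf4 by 1.43 and 1.49. Id1, an inhibitor of helix-loop-helix factors, was higher by 1.6 and 2.35. The nuclear receptor Nr4a1 was lower under GF, with differences of -0.93 in WT and -1.72 in KO, as were Cebpb, a factor of myeloid differentiation, at -0.92 and -2.09, and Hes1, a NOTCH target, at -2.24 and -2.82. In the GF pair 9 of the 22 were 2-fold lower in KO and 0 higher, with a median of -0.95; the count was 3 with quantile normalization, with a median of -0.67, and 5 in the deposited value table, with a median of -0.66.

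Upstream, 11 inducing factors of the serum and cyclic AMP responses had medians of 0.02 in WT and -0.45 in KO for GF minus SPF. Serum response factor itself, Srf, read 2.58, 2.34, 3.52 and 3.37 on WT SPF, KO SPF, WT GF and KO GF, so it was 0.93 higher under GF in WT and 1.03 higher in KO. Among 16 MAP kinases, the GF minus SPF median was 0.14 in WT and -0.17 in KO. By 2-fold, 2 were higher and 0 lower in WT, and 2 were higher and 2 lower in KO. Those lower in KO were Mapk8, at -0.89 in WT and -1.96 in KO, and Mapkapk2, at -0.43 and -1.57. Mapk13, a p38 kinase of epithelial cells, was 3.04 higher under GF in WT and 3.26 higher in KO. Mapk11 was at least 7.54-fold higher in WT and at least 2.78-fold higher in KO, since it was not well above background on the SPF arrays. Each such bound sets the bright array's level against the lowest well measured signal of the dim array or the dim probe's own, whichever is higher.

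Among 18 feedback inhibitors, the phosphatase Dusp1 read 7.27, 7.29, 8.17 and 7.52 and was 0.91 higher under GF in WT and 0.23 in KO. Spry1 and Spry2, inhibitors of growth factor receptor signalling, were higher under GF by 1.19 and 1.0 in WT and by 1.20 and 1.28 in KO. Both read below 0 on every array, and with normexp 0 of the 18 were 2-fold higher under GF in KO. Dusp2, a MAP kinase phosphatase of immune cells, was lower, with differences of -0.90 and -1.65, and Dusp4 was at least 4.33-fold lower in WT and at least 22.2-fold lower in KO, as it was not well above background on the GF arrays. In KO mice 8 of the 18 were 2-fold lower under GF and 2 higher, with a median of -0.61.

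The 12 inducible cytokine, chemokine and enzyme genes had a KO minus WT median of 1.1 under SPF, with 6 at least 2-fold higher and 0 lower, and of -1.09 under GF, with 0 higher and 8 lower (5 lower with quantile normalization or in the deposited value table). Of 6 B and plasma cell markers detected on every array, 4 were also at least 2-fold higher in KO under SPF, with a median of 1.60; their part was not tested. Ptgs2, the inducible cyclooxygenase, read 4.22 on WT SPF, 5.94 on KO SPF, 2.99 on WT GF and 1.40 on KO GF, and Il6 read 0.66, 2.86, 1.40 and 0.01. The KO SPF array was the highest of the 4 for both genes and the KO GF array the lowest. The 10 members had medians of -0.34 and -0.62 in those pairs. Hbegf, a ligand of the epidermal growth factor receptor, was higher under GF by 2.72 in WT and 3.22 in KO.

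**Figure D4:**
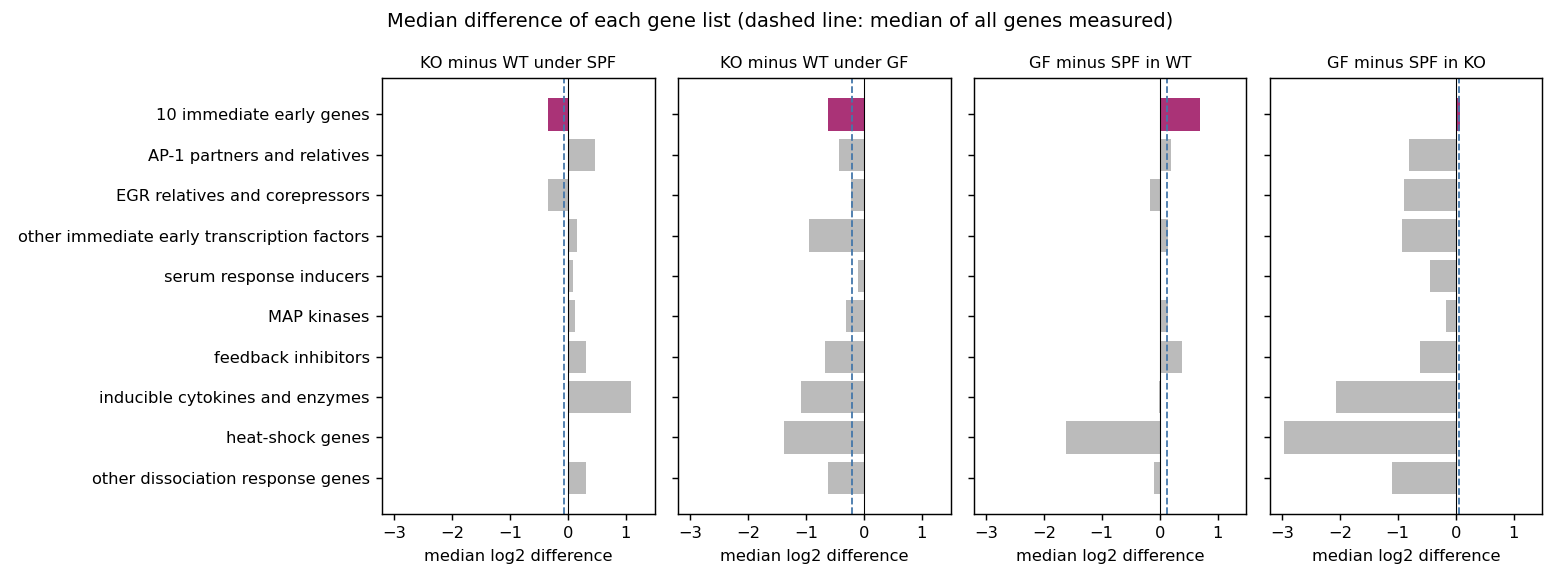
Bars give the median log2 difference of the 10 genes (coloured) and of each related gene list (grey) in the 4 comparisons, and the dashed line gives the median of all genes measured. The 10 genes have medians of -0.34, -0.62, 0.70 and 0.08, and the heat-shock list 0.01, -1.37, -1.62 and -2.97.

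Genes that respond to tissue dissociation were measured on the same arrays in 2 lists. The 15 heat-shock genes had a median level of 7.60 on WT SPF, 7.32 on KO SPF, 6.01 on WT GF and 4.19 on KO GF. Under GF 9 of 15 were 2-fold lower in WT and 14 of 15 in KO, beside 9.44% and 15.4% of all genes. In the GF pair 11 of 15 (7 with quantile normalization and 8 in the deposited value table) were 2-fold lower in KO than in WT, beside 7.77% of all genes. In the SPF pair 0 were 2-fold different. Hspa1a, the inducible HSP70, read 7.60, 7.26, 5.71 and 3.63 in the order WT SPF, KO SPF, WT GF and KO GF.

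The small chaperone Hspb1 read 5.32, 5.71, 3.03 and 0.41 in that order, and the cochaperone Bag3 6.32, 6.09, 3.93 and 2.13. These levels went down from the SPF to the GF arrays and further to KO GF, as did those of Jun and Junb, while Fos, Fosb, Egr1 and Egr3 were higher on the GF arrays. The list medians for GF minus SPF ran from -1.64 to -1.06 in WT and from -2.99 to -2.43 in KO over the alternative settings. The part of a heat-shock response in the levels of the 10 members was not tested.

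The 16 other dissociation genes were less uniform, with 3 higher and 2 lower by 2-fold under GF in WT, and 2 higher and 9 lower in KO. The shares of all genes were 17.5% higher and 9.44% lower in WT, and 21.6% and 15.4% in KO. Gadd45g, a stress-induced growth arrest gene, read 5.94, 4.93, 3.46 and 2.50 on WT SPF, KO SPF, WT GF and KO GF. Ccn1, a matrix protein gene induced through serum response factor, was higher under GF by 3.69 in WT and 2.50 in KO, and Ccn2 by 1.96 and 2.88. Per1, a clock gene of the immediate early class, was higher by 1.74 and 0.47. The part of the dissociation response in the members' levels was not tested.

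Markers of other cells also differed between the housings. Of 10 epithelial markers 6 were above background on each SPF array, 9 on WT GF and 10 on KO GF, and the median level, with probes not above background at their measured signal, was -2.99 on WT SPF, -2.16 on KO SPF, 1.98 on WT GF and 3.0 on KO GF. All 5 that were detected on every array were 2-fold higher under GF in both genotypes, with medians of 3.36 in WT and 4.72 in KO. With normexp, 7 of 9 were 2-fold higher in WT, with a median of 2.84, and 8 of 10 in KO, with a median of 3.30. Epcam, a surface protein of epithelium, read -0.77, -0.42, 4.18 and 4.82, and the keratin gene Krt8 was at least 95.4-fold higher on WT GF than on WT SPF. Epithelial cells of the colon also express immediate early genes, and the part of epithelial RNA in the members' levels was not tested.

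For the labelled cell type, 12 dendritic cell markers were measured, and detection alone does not establish the identity of the sorted cells. All 12 were above background on the SPF arrays and 11 on the GF arrays, where Xcr1, a marker of cross-presenting dendritic cells, was not. Their median levels were 1.73 on WT SPF, 2.54 on KO SPF, 2.20 on WT GF and 0.97 on KO GF. These were below the medians of the macrophage and monocyte markers given next. Their median difference was 0.23 for KO minus WT under SPF, -0.75 under GF, -0.25 for GF minus SPF in WT and -1.25 in KO. The integrin gene Itgax read 4.32, 4.44, 3.19 and 2.15 on WT SPF, KO SPF, WT GF and KO GF. The 11 macrophage and monocyte markers were above background on all 4 arrays, with median levels of 6.03, 5.47, 5.98 and 4.77 in that order. The median of 7 endothelial markers was 0.75 higher under GF in WT and 0.51 higher in KO, while the neutrophil marker Retnlg read 3.48, 2.24, 1.07 and -1.03 in that order. The plasma cell gene Jchain, which encodes the joining chain of antibodies, read 3.99, 6.20, -0.99 and -1.68, and Pou2af1, a B cell coactivator, 1.95, 4.28, -0.91 and -1.08. Both were highest on KO SPF and lowest on the GF arrays. By 2-fold under GF, 3 of 6 measured B and plasma cell markers were lower and 1 higher in WT. In KO, 4 of 7 were lower and 1 higher. The higher one was Pax5, by 1.04 in WT and 1.57 in KO. The part of these cells in the members' levels was likewise not tested.

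**Figure D5:**
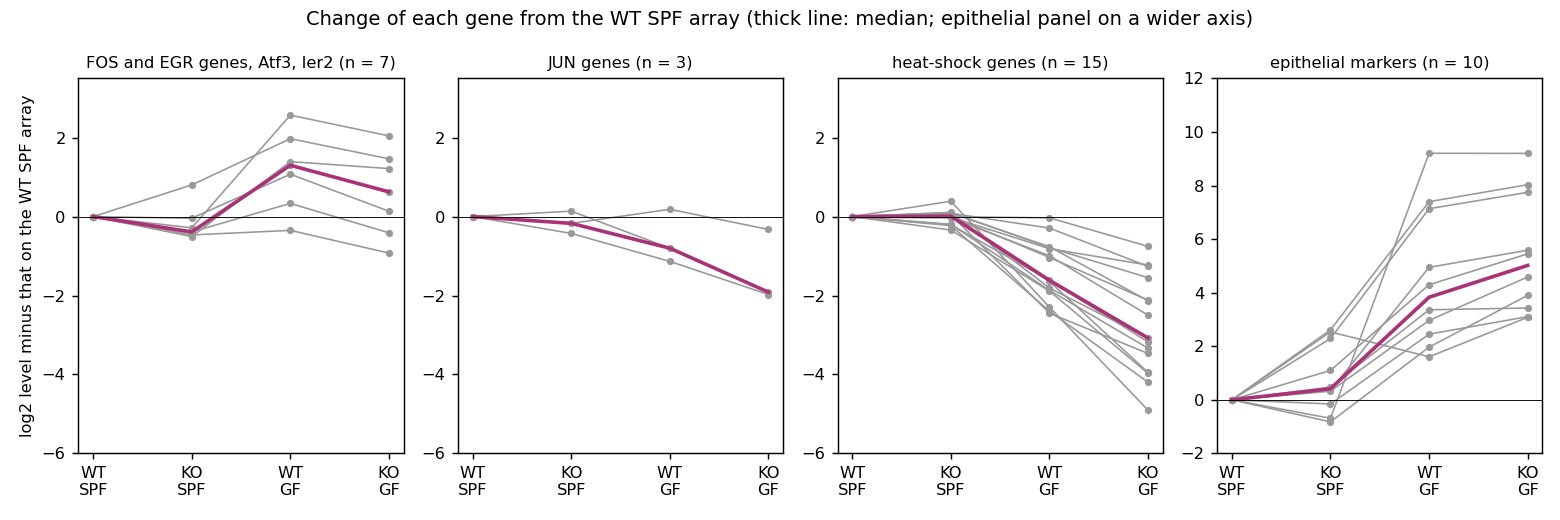
Log2 level of each gene on the 4 arrays minus its level on WT SPF (thin lines) with the median (thick line), for 7 FOS, EGR, Atf3 and Ier2 genes, 3 JUN genes, 15 heat-shock genes and 10 epithelial markers, the last on a wider axis and with probes that were not above background on some arrays. Heat-shock genes and Jun and Junb go down towards KO GF, where Hspb1 reads 0.41 against 5.32 on WT SPF, while epithelial markers such as Epcam go up, from -0.77 to 4.82.

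Genes of similar pattern over the 4 arrays were found by the root mean square distance between profiles centred on their own means, over the 12884 genes detected on every array. The median profile of the 10 members was nearest to Mif, a cytokine, at a distance of 0.01 log2 units, then to Atp6v1e1, a subunit of the proton pump of endosomes, at 0.02, and 4930453N24Rik, Akirin2 and Znhit3, at 0.03 each. A profile over 4 arrays is short: 1786 genes lay within 0.25 of it, and the median distance of all genes was 0.47. Since the members went both ways, 5 of them lay farther from their own median profile than that: Fosb (0.58), Egr3 (0.64), Jun (0.87), Junb (0.92) and Egr1 (1.03). The Fos profile was nearest to Nfatc2, a calcium-regulated factor, at 0.01, then to Zfp787, Gpr34, Pttg1 and Man1c1, at 0.04 to 0.06, with 410 genes within 0.25. Among the members, Egr3 (0.26), Atf3 (0.32) and Fosb (0.44) lay nearest to Fos, and Jun (1.26) and Junb (1.32) farthest. None of the 5 genes nearest to Fos remained among its 5 nearest after quantile normalization.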

How the data were processed

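The deposited raw files hold scanner intensity per spot, written by Agilent Feature Extraction 10.10.1.1, per the file headers; the processed intensity is already background-corrected. Control spots (3671) and outlier spots (non-uniform or off from their population) were dropped, repeated spots were averaged, log2 intensity was centred on each array's 75th percentile over probes, and the brightest probe stood for a gene. Genes were named by RefSeq accession, for 27191 of 55597 probes. Pairs of arrays were compared over genes above background on at least 1 of them, without a test. Additive effects were fitted with limma 3.58.1 (R 4.3.3) with Benjamini-Hochberg adjustment, checked on simulated data. Members and gene lists were chosen with earlier results of these data known. From each list the text names genes among the 3 highest and 3 lowest differences, and others chosen after their values were seen; pattern neighbours are the 5 nearest genes. Alternatives were normexp (offset 50, on median signals), quantile normalization, the deposited value table, mean over probes, marked spots kept, stricter detection, another limma prior and a 100-base promoter window. The number of arrays, 1 per group, limits the precision.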

Additional observations from a re-analysis of the deposited data

Results flagged for a closer look

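For some genes the KO minus WT difference had opposite signs in the SPF and GF pairs, or the GF minus SPF difference had opposite signs in WT and KO mice. With 1 array per group these contrasts were not tested. Among the members, the KO difference under GF minus that under SPF was -1.31 for Fosb and -1.25 for Junb, and the housing difference in KO minus that in WT was -0.34 for Jund and -0.35 for Ier2. The last 2 rest on small differences that changed sign between settings. Among the related genes, the same contrast of KO differences was -3.35 for Crem, a cyclic AMP responsive repressor, -3.13 for Il10, -3.59 for Il6, -3.01 for Jdp2, -2.51 for Nr4a2 and -3.31 for Ptgs2. The housing difference of Jdp2 also had opposite signs, with the same contrast of -3.01, and that of Tnf had a contrast of -2.12.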

How the results depend on the processing

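Of 240 differences of single members under the alternatives, 238 moved by less than 1.5-fold or not at all. The other 2 were those of Egr3 under normexp. With 1 probe per member, all detected on every array, the mean over probes and stricter detection could not change these differences or their medians. In at least 1 setting, 3 changed sign (Egr3 for KO minus WT under GF, Jund and Ier2 for GF minus SPF in KO). Members' medians ran from -0.42 to -0.28 and from -0.63 to -0.34 for KO minus WT under SPF and GF, and from 0.56 to 0.76 and 0.08 to 0.51 for GF minus SPF in WT and KO. Junb was not 2-fold lower in KO under GF with quantile normalization or in the deposited table, leaving 0 members. The 20 genes limma called for genotype became 0 with normexp (755 at an unadjusted p under 0.05), 0 with quantile normalization (943), 0 in the deposited table (721), 0 with the mean over probes (926), 38 under stricter detection (above background on every array) and 76 with a trended robust prior. The 2489 for housing became 1301 with normexp and 1566 in the deposited table, where members called fell from 4 to 2. By limma adjusted p for housing, Fos passed with normexp (0.0222), quantile normalization (0.0276), stricter detection (0.0282) and the other prior (0.00363), and Fosb with the last 3 (0.0367, 0.0108 and 0.000176). Under stricter detection and the other prior, the error was wholly or almost wholly pooled over genes. Jun was lost with quantile normalization (0.0862) and the deposited table (0.0906), Junb with these (0.0688 and 0.104), normexp (0.0614) and the mean over probes (0.0616), and Egr3 with normexp (0.0725). Of the 5 genes nearest to the members' median, 0 stayed with normexp and 0 with quantile normalization, and of those nearest to Fos, 1, 0 and 2 with normexp, quantile normalization and the mean over probes. In the 100 bases before the start, 0 members held a heat shock core and 1 a TATA box; the cause of the other changes was not tested. No paired analysis was possible because each group has 1 array and the labels carry no replicate numbers. Signal over background limits Egr3 most, and the number of arrays limits every comparison.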
